A study of Homo sapiens with 6 samples.

Results

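The miR-26 family is a small group of human microRNAs (miRs) whose hairpins lie inside introns of the CTDSP phosphatase genes. Its members were chosen by name rather than by a threshold on a measured value, with earlier results of these data known: hsa-miR-26a-5p, hsa-miR-26b-5p, hsa-miR-26a-1-3p, hsa-miR-26a-2-3p and hsa-miR-26b-3p, which are 5 of the 2588 miR names listed in the count table. Small RNA was sequenced from 6 libraries of HEK293T cells, a human embryonic kidney line that carries the SV40 large T antigen. In the RPL24 KD group (n = 3) ribosomal protein L24 was targeted with 50 nM of siPOOLs, which are mixtures of many siRNAs, and in the NC group (n = 3) the same dose of non-targeting siPOOLs was used. Both groups were harvested at 72 h. The sample descriptions place a transfection with miR-608 plasmids in both groups at 48 h, 24 h before harvest, whereas the study's text calls the sequenced knockdown a separate experiment, so that it is not certain that the sequenced cells received the plasmid. The comparison asks whether RPL24 depletion alters mature miR levels. RPL24 itself is not measured in small RNA libraries, nor are mRNA markers of the cell line, so neither the knockdown nor the cell identity could be checked here.

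A miR gene is transcribed as a long primary transcript, from which Drosha cuts a hairpin and Dicer then cuts a short duplex. One strand of the duplex, here the 5p arm, is usually kept by an Argonaute protein and guides it to messenger RNAs that match its seed, while the other strand, the passenger, is mostly degraded. The miR-26 hairpins are a textbook case of miRs made together with their host genes, which encode small phosphatases of the RNA polymerase II C-terminal domain, and the EZH2 message, which encodes a histone methyltransferase, is a well known miR-26 target.

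The mature sequences of the members are shown because they define which members share a seed and at which bases the members differ. They are the RefSeq sequences of assembly GRCh38.p14, written 5′ to 3′, and the capitals mark the seed, bases 2 to 8.
hsa-miR-26a-5p: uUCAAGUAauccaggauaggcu
hsa-miR-26b-5p: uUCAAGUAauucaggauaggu
hsa-miR-26a-1-3p: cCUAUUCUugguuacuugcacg
hsa-miR-26a-2-3p: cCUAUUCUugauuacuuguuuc
hsa-miR-26b-3p: cCUGUUCUccauuacuuggcu

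Both 5p arms share the seed UCAAGUA. Counted from 1 at the 5′ end, miR-26a-5p and miR-26b-5p differ by C11U and C21U, with 19 of 21 aligned positions identical, and miR-26a-5p has 22 bases against 21. The passenger arms fall into 2 seeds: miR-26a-1-3p and miR-26a-2-3p share CUAUUCU and differ by G11A, C19U, A20U, C21U and G22C, while miR-26b-3p carries CUGUUCU through the change A4G relative to miR-26a-1-3p. RefSeq gave a sequence for 2281 of the 2588 listed names. Among these, the only others with the UCAAGUA seed were the following.
hsa-miR-1297: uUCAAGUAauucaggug
hsa-miR-4465: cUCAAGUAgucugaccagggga

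Neither miR-1297 nor miR-4465 had a count in any of the 6 libraries. Among the names with a RefSeq sequence, all 78726 counts with this seed therefore came from miR-26a-5p and miR-26b-5p.

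The family is encoded at 3 places in GRCh38, each inside a CTDSP gene and on the same strand as it. MIR26A1 occupies chr3:37969404-37969480 on the plus strand within CTDSPL, and was intronic in each of the 5 transcripts that span it. MIR26A2 occupies chr12:57824609-57824692 on the minus strand within CTDSP2 and was intronic in 6 transcripts, being in intron 5 of 3 of them. MIR26B occupies chr2:218402646-218402722 on the plus strand within CTDSP1 and was intronic in 11 transcripts, being in intron 4 of 9 of them. No exon of these spanning host transcripts overlapped any of the hairpins. Exons of other host transcripts and of other genes were not examined. The mature miR-26a-5p sequence is present at both chr3:37969413-37969434 and chr12:57824658-57824679, so that its reads cannot be assigned to CTDSPL or CTDSP2. The 3p arms, in contrast, come from single places: miR-26a-1-3p from chr3:37969452-37969473, miR-26a-2-3p from chr12:57824620-57824641 and miR-26b-3p from chr2:218402692-218402712, while miR-26b-5p comes from chr2:218402657-218402677.

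Library depth ranged between 398721 and 611745 counts. Levels are given as CPM, the counts of a miR scaled to a common library size, after TMM scaling, a scaling that assumes most miRs do not change; a floor of 3 counts corresponded to 4.98 to 7.50 CPM. Pairs of libraries were compared by the chi-square per degree of freedom, over miRs with at least 20 reads in a pair. It was 2.49 to 2.87 between RPL24 KD libraries and 11.7 to 22.1 between NC libraries. The NC libraries thus differed more among themselves. Between a KD and an NC library it was 7.65 to 20.02, never above the highest value between NC libraries. By this measure the difference between the groups did not exceed the spread within NC. One library of each group has a column number, the same in both groups, that matches no sample label. It is called the unnumbered library. Nothing in the labels says that the libraries of a group came from separate cultures, and p-values therefore measure only the spread between these samples, which may be technical. In such bulk samples fewer cells with a miR and less of it per cell cannot be told apart.

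The family was abundant in HEK293T cells and almost entirely 5p. Its 78784 counts made up 2.42 to 2.70% of a library, and only 58 of them (0.0736%) came from the 3 passenger arms.

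miR-26a-5p was the dominant member. Its counts were 13226 and 13598 in RPL24 KD replicates 1 and 2 and 9040 in the unnumbered KD library, against 13387 and 9124 in NC replicates 1 and 2 and 10580 in the unnumbered NC library. Scaled, these were 24125, 22573 and 22591 CPM in KD and 23358, 22741 and 19996 CPM in NC, in the same order. The groups overlapped, and the unnumbered NC library was the lowest of the 6. It ranked between 9 and 13 among all miRs of a library and took 2.06 to 2.37% of the counts.

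miR-26b-5p was several times less abundant, at 1713 and 1722 counts in KD replicates 1 and 2 and 1210 in the unnumbered KD library, against 1849 and 1428 in NC replicates 1 and 2 and 1849 in the unnumbered NC library. Scaled, these were 3125, 2859 and 3024 CPM in KD and 3226, 3559 and 3495 CPM in NC. All 3 KD values were below all 3 NC values, although KD replicate 1 and NC replicate 1 lay close together. Its rank was 48 to 49 in KD and 43 to 45 in NC libraries.

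**Figure D1:**
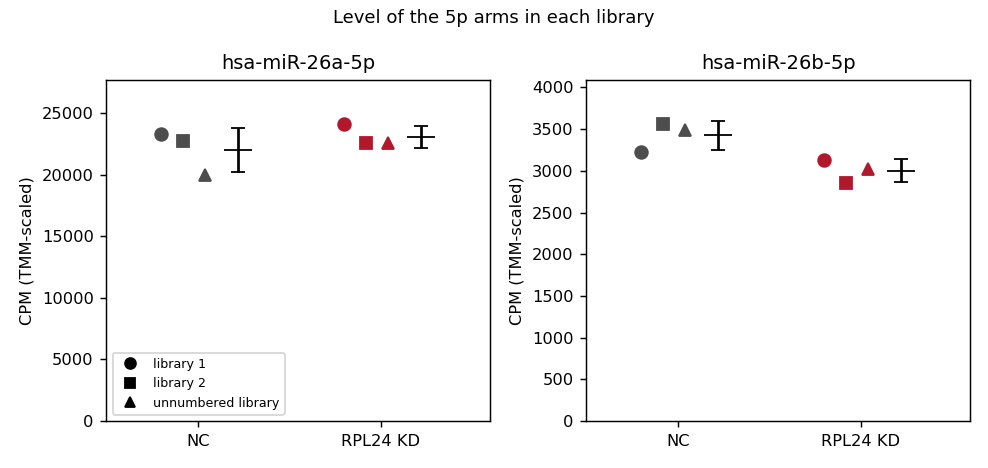
TMM-scaled level (CPM) of hsa-miR-26a-5p and hsa-miR-26b-5p in each library (points) with the group mean and SD (n = 3), on linear axes that start at 0. The groups overlap for miR-26a-5p, whereas the 3 RPL24 KD values of miR-26b-5p (2859 to 3125 CPM) lie below the 3 NC values (3226 to 3559 CPM).

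Neither 5p arm passed the threshold of an adjusted p of 0.05. miR-26a-5p averaged 23096 ± 891 CPM in KD and 22032 ± 1790 CPM in NC (SD, n = 3). Its log2 fold change was 0.07 (SE 0.06, 95% interval -0.07 to 0.20), or 4.80% higher with an interval of -4.55 to 15.1%, with an adjusted p of 0.587 by edgeR's quasi-likelihood test with Benjamini-Hochberg adjustment over 360 miRs. The sign of this difference rested on 1 library: without the unnumbered NC library the log2 fold change was -0.0097. miR-26b-5p averaged 3002 ± 134 CPM in KD and 3427 ± 177 CPM in NC. Its log2 fold change was -0.19 (SE 0.07, 95% interval -0.34 to -0.04), a change of -12.4% with an interval of -21.1 to -2.75%, with an unadjusted p of 0.0167 and an adjusted p of 0.128 in edgeR. The lower miR-26b-5p level was therefore past the threshold only before adjustment in that test. Without KD replicate 2 its unadjusted p in edgeR was 0.0942 (adjusted p = 0.414). On leaving out any other single library the unadjusted p stayed under 0.05. A block on the replicate number leaves out both unnumbered libraries and rests on 2 pairs, for which pairing by number was not established. With it, the adjusted p in edgeR was 0.0203, whereas the same 4 libraries without the block gave 0.114. When only miRs averaging 100 counts or more were tested it was 0.0336.

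Of the 2 members tested, edgeR called 0 and 1 had an unadjusted p under 0.05; DESeq2 and limma-voom likewise called 0, each with 1 under an unadjusted 0.05. Over all 360 miRs tested edgeR called 18 (5.00%), of which 12 were higher and 6 lower in KD. An unadjusted p under 0.05 was found for 85 of the 360 (23.6%), and groups that did not overlap for 99 of the 360 (27.5%). With 1 of 2 members in each of these classes, the family cannot be set apart from that background. The median log2 fold change of all tested miRs was -0.0084, between the values of both 5p arms.

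**Figure D2:**
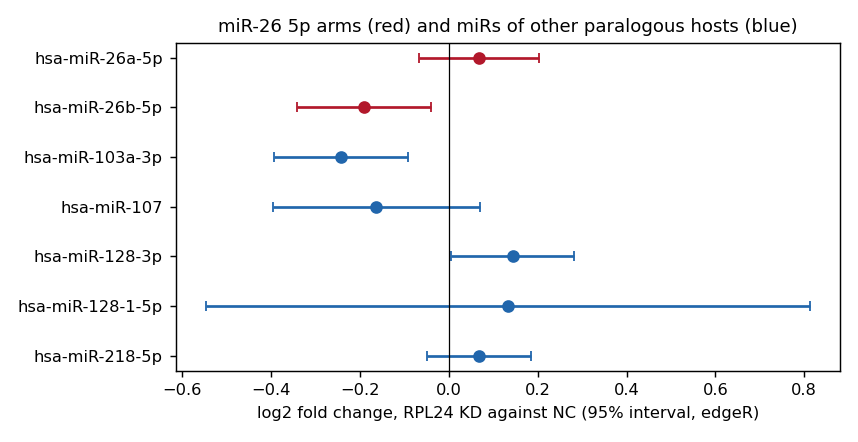
Log2 fold change (RPL24 KD over NC) with its 95% interval for both miR-26 5p arms and for the tested miRs hosted by other paralogous genes; the vertical line marks 0. The interval of miR-26a-5p spans 0 and that of miR-26b-5p lies below it (-0.34 to -0.04), before adjustment over all miRs.

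The balance between both 5p arms was compared as the share of miR-26a-5p in their summed counts, which needs no scaling between libraries. The share was 88.5, 88.8 and 88.2% in KD replicates 1 and 2 and the unnumbered KD library, and 87.9, 86.5 and 85.1% in the corresponding NC libraries. The groups did not overlap, but the nearest libraries, the unnumbered KD library (95% Wilson interval 87.6 to 88.8%) and NC replicate 1 (87.3 to 88.4%), were within counting error of each other. The mean share was 88.5% ± 0.284 in KD and 86.5% ± 1.37 in NC (SD, n = 3), a difference of 2.01 percentage points with an exact two-sided permutation p of 0.1, which is the smallest p that 3 against 3 libraries can give, and an adjusted p of 0.2 over the 4 shares compared. The difference was 1.33 points without the unnumbered NC library and 2.70 points without NC replicate 1. As a ratio, there were 7.72, 7.90 and 7.47 miR-26a-5p reads per miR-26b-5p read in the KD libraries, and 7.24, 6.39 and 5.72 in the NC libraries. The sources do not say to which miR a read was given when it matched both, and these sequences differ only at C11U and at the 3′ end, so that the split between them is uncertain. Whether adapter ligation favours either sequence was not tested.

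**Figure D3:**
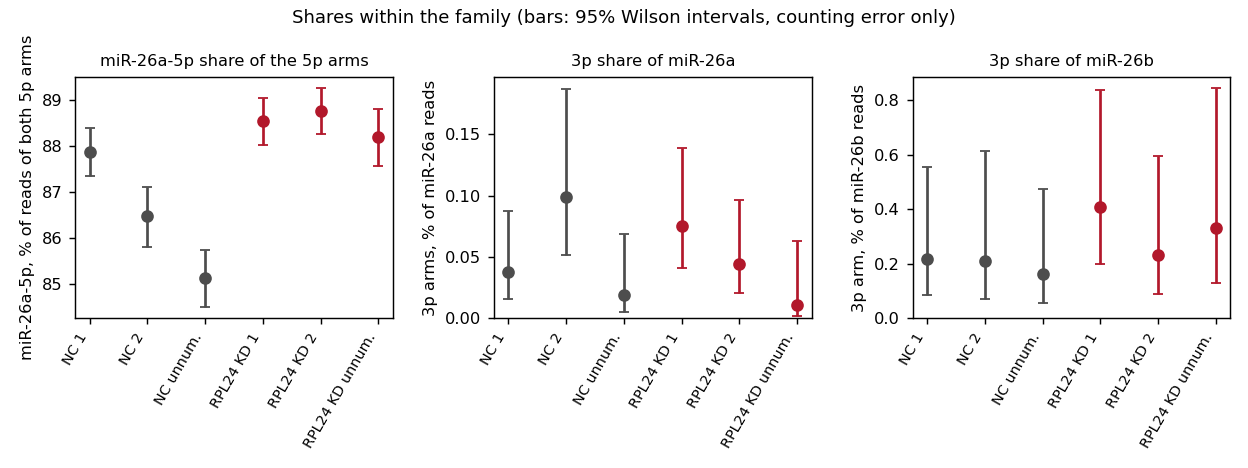
Percentage of miR-26a-5p in the reads of both 5p arms (left, on an axis that does not start at 0), of the 3p arms in miR-26a reads (middle) and of the 3p arm in miR-26b reads (right) in each library, with 95% Wilson intervals that cover counting error only. The share of miR-26a-5p in both 5p arms is 88.2 to 88.8% in RPL24 KD and 85.1 to 87.9% in NC libraries.

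The passenger arms were near the limit of detection and, having too few counts for the filter, were not tested. miR-26a-1-3p had 7, 3 and 1 counts in the KD libraries and 2, 1 and 1 in the NC libraries. miR-26a-2-3p had 3, 3 and 0 counts in KD and 3, 8 and 1 in NC, the 0 being compatible with up to 3 counts. miR-26b-3p had 7, 4 and 4 counts in KD and 4, 3 and 3 in NC. These are sums of 11 against 4, 6 against 12 and 15 against 10 counts for the 3 arms, and their depth-corrected ratios of KD over NC were 2.67 (95% interval 0.790 to 11.5), 0.485 (0.149 to 1.40) and 1.45 (0.611 to 3.62). Each interval includes 1 and covers counting error only, since amplified reads without molecular identifiers are not independent molecules. At this depth no difference was detectable for any of the 3 passenger arms. In an edgeR quasi-likelihood fit without the filter, their adjusted p-values were 0.638, 0.687 and 0.687.

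The share of passenger reads in each gene's own reads describes how strongly the 5p strand was favoured. For miR-26a, both 3p arms together were 0.0436% ± 0.0322 of the reads in KD and 0.0516% ± 0.0417 in NC (SD, n = 3; exact permutation p = 0.8, adjusted p = 0.8). The sign of that difference also rested on single libraries, the difference being 0.0155 points without NC replicate 2, 0.0082 points without the unnumbered KD library and -0.0244 points without the unnumbered NC library. For miR-26b, the 3p arm was 0.407, 0.232 and 0.329% of the reads in KD and 0.216, 0.210 and 0.162% in NC. The groups did not overlap (0.323% ± 0.0878 against 0.196% ± 0.0295, exact permutation p = 0.1, adjusted p = 0.2), yet each value rests on 3 to 7 reads and the Wilson intervals of the libraries overlapped. Between the 2 genes that give miR-26a, the CTDSPL-derived miR-26a-1-3p made up 73.3% ± 25.2 of the 3p reads in KD and 33.7% ± 20.2 in NC, with an exact permutation p of 0.2 and an adjusted p of 0.267, on 1 to 10 such reads in a library. The unnumbered KD library holds 1 such read, and the difference of 39.6 points was 26.3 points without it.

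Other miRs favoured either the 5p or the 3p arm, and to very different degrees. The less abundant, or minor, arm took 0 to 49.6% of the reads of the hairpin names compared. Among the 89 hairpin names compared, each with at least 1000 reads over both arms, the median share of the minor arm was 1.86%. Of the 89, 34 had a share under 1%. The comparison left out other abundant names, among them miR-148a, miR-10b, miR-30d, miR-151a and miR-221, although both arms of each were tested. In KD the arms averaged 127347 and 972 CPM for miR-148a, and 30477 and 1532 CPM for miR-221. The median and the count of 34 therefore hold only for the 89. miR-26a stood at place 12 from the lowest, with 33 passenger reads beside 68955 5p reads (0.0478%), and miR-26b at place 23, with 25 beside 9771 (0.255%). These places hold only among the 89 names as counted, describe the 6 libraries together and carry no test. Some shares of other names are too low because an arm was not counted. The let-7f share, at place 6, lacks let-7f-2-3p, which was at 22.5 CPM in KD and 20.4 CPM in NC.

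**Figure D4:**
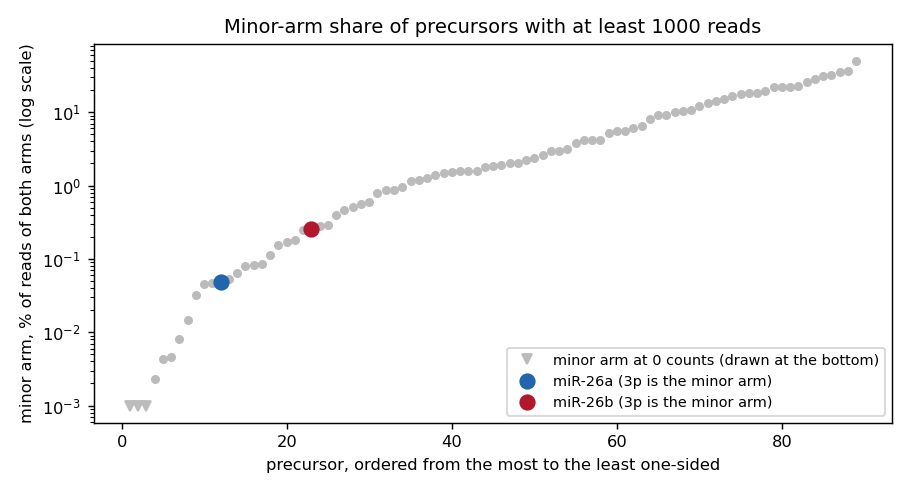
Share of the less abundant arm in all reads of a hairpin name, summed over the 6 libraries, on a log scale. The 89 names compared, each with at least 1000 reads, are ordered from the most to the least one-sided. The 3 names at 0 are drawn at the bottom. Some abundant names, such as miR-148a, are not among the 89. miR-26a (0.0478%) and miR-26b (0.255%) lie below the median of 1.86%.

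Other miRs that lie, like miR-26, in introns of paralogous host genes were set beside the family. Of the 19 names on that list 5 passed the filter; edgeR called 0 of them, with 2 under an unadjusted p of 0.05. DESeq2 also called 0, with 1 under an unadjusted 0.05 in the tested miRs, and limma-voom 0, with 2. Of the 5, 3 had a log2 fold change above 0 and 2 below, and their median was 0.07. Of the miRs of the pantothenate kinase (PANK) introns, miR-103a-3p was at 14021 ± 216 CPM in KD and 16571 ± 1812 CPM in NC (log2 fold change -0.24, 95% interval -0.39 to -0.09, edgeR adjusted p = 0.0570), and miR-107 was at 1047 ± 41.7 against 1167 ± 201 CPM (log2 fold change -0.16, edgeR adjusted p = 0.409). The miR-103a-3p result lay at the threshold: it was called in 9 of 19 alternatives, over which its adjusted p ranged from 0.00825 to 0.207, and its log2 fold change was below 0 in each of them. The miR-107 value rested on the unnumbered NC library, without which its log2 fold change was -0.04. Groups that did not overlap were found for 2 of the 5, miR-103a-3p and, in the opposite direction, miR-128-3p, which was at 21452 ± 461 CPM in KD and 19420 ± 1795 CPM in NC (log2 fold change 0.14, 95% interval 0.0038 to 0.28, edgeR adjusted p = 0.203). Without the unnumbered NC library the log2 fold change of miR-128-3p was 0.06. It is named after its values were seen.

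Each 5p arm was finally compared with 164 other miRs of at least 100 mean counts by the root mean square difference of their log2 CPM, each centred on its own mean over the 6 libraries. The 5 profiles most like miR-26a-5p were those of miR-99b-3p, miR-30d-5p, miR-30a-5p, miR-320a and let-7f-5p, at differences of 0.04 to 0.05 against a median of 0.15 over all candidates. The 5 most like miR-26b-5p were miR-182-5p, miR-183-5p, miR-101-3p, miR-32-5p and miR-18a-5p, at 0.03 to 0.07 against a median of 0.16. The 2 miR-26 5p arms differed from each other by 0.165 on this scale, about as much as the median candidate did from miR-26b-5p. All the points come from the same 6 libraries and share their scaling, so this likeness is a description.

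**Figure D5:**
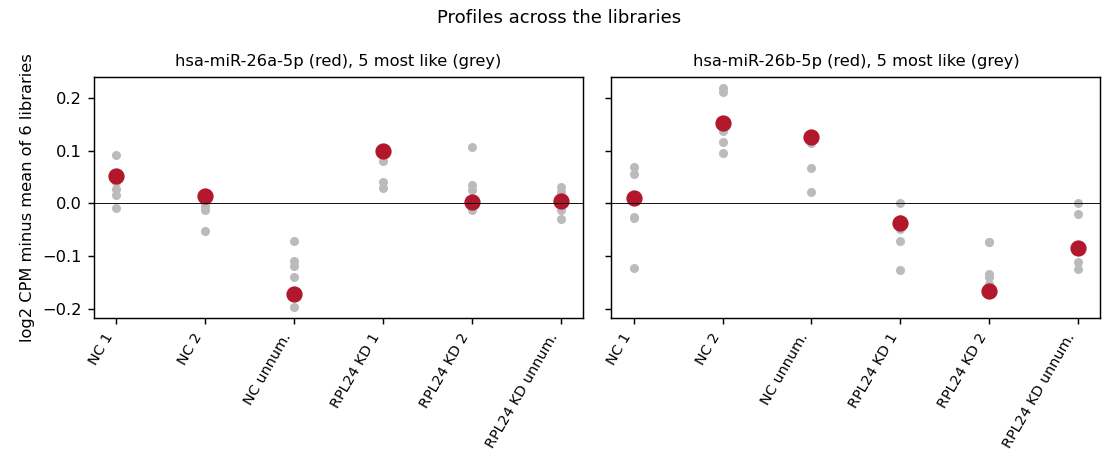
Centred log2 CPM in each of the 6 libraries for each miR-26 5p arm (red) and for the 5 miRs with the most similar profile (grey). miR-26a-5p is lowest in the unnumbered NC library, whereas miR-26b-5p is higher in the 3 NC than in the 3 RPL24 KD libraries.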

How the data were processed

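Small RNA libraries of 6 HEK293T samples were analysed. The deposited table holds raw counts per miR name; per the study's methods, the authors used Flexbar for trimming, miRExpress with miRBase for alignment and DESeq2 for testing, and FastQC 0.11.9 is in the submitters' processing notes. The meaning of "Unique" in the column names is not given in the sources used here. One column of each group matched its group but no sample's number and was used without a number. No column of other samples was present. Depth was 398721 to 611745 counts.

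Counts were fitted with the quasi-likelihood test of edgeR 4.0.16 (legacy = FALSE, TMM, filterByExpr with a minimum count of 10) in R 4.3.3, giving 360 of 2588 names tested, with Benjamini-Hochberg adjustment and calls at an adjusted p under 0.05. The SE was derived from the F statistic and the 95% interval from the t distribution. DESeq2 1.42.0 and limma-voom (limma 3.58.1) were alternatives, as were other scalings, filters, a replicate block and leaving out each library. Shares of counts were compared with exact two-sided permutation tests over the 6 libraries. The code was tested on simulated data. Sequences came from RefSeq, which matched 2281 of 2588 names, and hairpin positions from GENCODE (GRCh38).

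The members and lists were chosen with earlier results of these data known. Named miRs were the 5 members, miRs with the miR-26a-5p seed, the PANK-hosted miRs and any called ones of the paralogous-host list, and the 5 profiles most like each 5p arm.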

Additional observations from a re-analysis of the deposited data

How the results depend on the processing

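No alternative called miR-26a-5p, whose log2 fold change was -0.0097 to 0.11 on leaving out single libraries, the negative value arising without the unnumbered NC library. The log2 fold change of miR-26b-5p was -0.24 to -0.16 in those fits. It was called at -0.23 when miRs were required to average 100 counts or more (edgeR adjusted p = 0.0336) and at -0.19 with the replicate block (edgeR adjusted p = 0.0203), so each of these called 1 member against 0. With miR-26a-5p and miR-26b-5p summed into 1 miR the value was 0.022 (edgeR adjusted p = 0.865). Deviations from the group means correlated at -0.14 for number 1 and 0.12 for number 2. These values gave no sign of pairing but cannot exclude it with so few libraries. Both unnumbered columns carry the same number and were left out of this check. The block fit holds only the 4 numbered libraries and called 57 of all miRs. The same libraries without the block called 27, and the main fit of all 6 called 18. The count was 28 by total-count scaling (10 higher, against 12 of 18), 31 with no filter, 34 with robust edgeR, and 0 to 36 with each library left out (0 without KD replicate 1, where 56 had an unadjusted p under 0.05; 8 without KD replicate 2; 36 without the unnumbered NC library). The difference in the miR-26a passenger share was -0.0244 to 0.0155 points with each library left out. miR-99b-3p changed sign by total counts (-0.022), by the 100-count filter (-0.00995), with the block (-0.036), in the numbered libraries alone (-0.0398) and in the range over left-out libraries (-0.051 to 0.082), miR-128-1-5p in that range (-0.18 to 0.34), and let-7f-5p by total counts (-0.0095). Of 19 alternatives, miR-103a-3p was called in 9, miR-183-5p in 7, miR-182-5p in 4 and miR-101-3p in 1, each lower in KD. miR-183-5p, miR-182-5p and miR-101-3p were chosen for profiles like that of miR-26b-5p in these libraries. Their direction therefore follows from that choice. The edgeR setting legacy = TRUE and the unblocked numbered libraries were chosen after seeing the data and called no member. Their cause was not tested. Depth limits the passenger arms, at 0 to 8 counts a library.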
